A study of Homo sapiens with 6 samples.

Results

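The mRNA levels of 10 genes of the bone morphogenetic protein (BMP) and transforming growth factor beta (TGF-beta) pathways were examined in MDA-MB-231 cells with and without knockdown of PUS1. These were the ligands BMP4 and TGFB1, the receptor TGFBR2, the pseudoreceptor BAMBI, the inhibitory SMADs SMAD6 and SMAD7, and the response genes ID1, ID2, ID3 and TGFBI. The 10 genes, of 60605 in the deposited table, were selected by symbol, with their fold changes between the same 2 groups already known, and BAMBI was chosen for its higher level after knockdown. Their levels and fold changes in these libraries are therefore a description. No p is given for a member, and where members past a threshold are counted, the count describes the choice and is no test.

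MDA-MB-231 is a triple-negative human breast cancer line with a mesenchymal-like phenotype, and PUS1 is an enzyme that turns uridine into pseudouridine in tRNA, mRNA and other RNAs. In the shControl group the cells carried a control hairpin and in the shPUS1 group a hairpin against PUS1, both delivered by lentivirus, the latter in the pLKO.1 vector, and poly(A) RNA was sequenced from 3 libraries per group. Both groups were grown in RPMI medium with 10% fetal bovine serum and selected with and kept in puromycin. No ligand or pathway inhibitor is named for either. The sources used here do not tie the sequenced shPUS1 cells to the sequence of 1 hairpin. The 3 shPUS1 libraries share 1 knockdown label. An effect of the hairpin or of the cell population therefore cannot be told apart from one of lower PUS1. The libraries are labelled as biological replicates, but whether each came from its own infection and selection is not given in the sources used here, so that standard errors and p-values describe the spread between these libraries.

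BMP and TGF-beta ligands are secreted proteins that bring together type I and type II receptor kinases at the cell surface. BMP receptors phosphorylate SMAD1, SMAD5 and SMAD9, TGF-beta and activin receptors phosphorylate SMAD2 and SMAD3, and either set enters the nucleus with SMAD4. ID1, ID2 and ID3, which block the E proteins of the helix-loop-helix family, are classical targets of the BMP branch, TGFBI is a classical target of TGF-beta, and BAMBI, SMAD6 and SMAD7 are induced by the pathways and restrain them. Serum contains ligands of both branches.

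Total estimated counts lay between 14241505 and 19625998 per library. Expression is given as TMM-scaled CPM, the counts relative to the scaled library size, between libraries, and as FPKM, which also divides by the exonic length, between genes. PUS1 itself stood at 14.5, 27.5 and 12.1 CPM in shControl replicates 1, 2 and 3 and at 6.57, 5.47 and 5.37 CPM in the shPUS1 replicates, a log2 fold change of -1.64 (SE 0.32, edgeR quasi-likelihood test, adjusted p = 0.0462) with all libraries and -1.20 (SE 0.16, adjusted p = 0.00311) without shControl replicate 2. The adjusted p of PUS1 was 0.0969 with the replicate block, 0.0906 without shControl replicate 1, 0.192 to 0.253 without any 1 of the shPUS1 libraries, and 0.0544 and 0.0514 with limma on log2(FPKM + 1) and log2(FPKM + 0.1). The library shControl replicate 2 stood apart: across genes its log2 CPM correlated with the other shControl libraries at r = 0.961, whereas shControl replicates 1 and 3 correlated at 0.988 and the shPUS1 libraries among themselves at 0.993 to 0.995. Fold changes of the members and of the called pathway genes are given with and without it. The 5 markers of the line (VIM, CD44, EGFR, AXL and CAV1) were all present, with summed FPKM of 839 to 1050 in shControl and 633 to 666 in shPUS1. Of 6 luminal markers ESR1, PGR, FOXA1 and CDH1 were near 0, while EPCAM and GATA3 had mean FPKM of 2.72 and 1.91, and the blood markers PTPRC, CD3E and HBB were at or near 0, whereas CD68, a lysosomal protein that tumour lines can also express, had a mean FPKM of 35.2. The blood markers summed to 37.3 to 42.7 FPKM in shControl and 27.8 to 31.7 in shPUS1, and the part of this difference in any result was not tested. The 3 endothelial markers summed to 0.22 to 1.02 FPKM over the 6 libraries and the 3 neural markers were at 0. In bulk RNA a lower share of cells that express a gene and less of its RNA per cell cannot be told apart.

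The sequences upstream of the response genes are shown first, because SMAD proteins act on such regions. RefSeq holds 15 annotated starts for the 10 genes (GRCh38.p14), and the 250 bases before each start were searched on both strands for GGCGCC, the GC-rich site known to bind SMAD1 and SMAD5, for CAGAC, a SMAD-binding core, and for the palindrome GTCTAGAC, the full SMAD-binding element. No pair of these motifs overlapped in the windows printed here. The windows of BAMBI, SMAD6, ID1 and ID3 follow, chosen to set the gene with the most GC-rich sites and the gene with the palindrome beside the ID genes with the highest levels. Capitals mark any of the 3 motifs, with CAGAC on the other strand read as GTCTG. They lie at chr10:28677271-28677520 (plus strand), chr15:66701986-66702235 (plus strand), chr20:31605039-31605288 (plus strand) and chr1:23559502-23559751 (minus strand), in that order.
BAMBI: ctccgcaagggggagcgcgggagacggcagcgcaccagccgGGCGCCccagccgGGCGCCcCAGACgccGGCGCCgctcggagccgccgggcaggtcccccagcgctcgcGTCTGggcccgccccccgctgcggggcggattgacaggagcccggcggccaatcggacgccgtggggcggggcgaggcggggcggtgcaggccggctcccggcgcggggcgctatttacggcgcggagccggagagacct
SMAD6: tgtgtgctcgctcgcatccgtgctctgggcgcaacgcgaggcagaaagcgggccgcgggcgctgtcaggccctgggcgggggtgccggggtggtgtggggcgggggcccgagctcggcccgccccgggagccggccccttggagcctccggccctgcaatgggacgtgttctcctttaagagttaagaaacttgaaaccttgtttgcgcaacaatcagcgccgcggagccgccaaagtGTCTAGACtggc
ID1: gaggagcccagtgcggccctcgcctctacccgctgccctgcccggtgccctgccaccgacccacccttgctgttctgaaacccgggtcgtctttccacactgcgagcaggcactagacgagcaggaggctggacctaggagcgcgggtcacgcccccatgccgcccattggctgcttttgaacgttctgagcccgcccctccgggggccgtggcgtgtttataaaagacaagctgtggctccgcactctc
ID3: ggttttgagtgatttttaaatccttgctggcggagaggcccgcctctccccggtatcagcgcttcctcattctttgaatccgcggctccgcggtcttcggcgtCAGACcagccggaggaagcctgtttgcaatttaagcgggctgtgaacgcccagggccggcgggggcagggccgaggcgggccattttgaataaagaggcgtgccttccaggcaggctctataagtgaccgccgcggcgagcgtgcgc

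The BAMBI window held 3 copies of GGCGCC, close together at its upstream end, and 2 of CAGAC, 1 of them between the second and the third GGCGCC. Of 35116 RefSeq promoter windows of the same length, 16.4% held GGCGCC at least once and 0.527% at least 3 times. The BAMBI window was also 81.2% G and C, against 66.0% for ID1, 62.0% for ID3 and 68.0% for SMAD6. Single copies of GGCGCC stood before TGFBI and before 1 of the 3 BMP4 starts, and the other 12 starts had none. CAGAC was found at 6 of the 15 starts and in 38.0% of all promoters. SMAD6 held GTCTAGAC once, close to its start, as did 0.182% of all promoters. The ID1 window contained none of the 3 motifs and the ID3 window a single CAGAC. These matches describe letters in a short window and say nothing of binding.

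BAMBI was higher in every shPUS1 library. BAMBI (ENSG00000095739, chromosome 10, 28677510 to 28682932, plus strand in the deposited coordinates) encodes a transmembrane protein that resembles a type I receptor without a kinase domain and so blocks signaling by BMP, activin and TGF-beta receptors. Its level was 4.25, 4.67 and 4.29 CPM in shControl replicates 1, 2 and 3 and 10.7, 11.9 and 12.7 CPM in shPUS1 replicates 1, 2 and 3. All 3 shPUS1 libraries lay above all 3 shControl libraries, and shControl replicate 2 was within the narrow range of its group. The means were 4.40 ± 0.23 and 11.8 ± 1.02 CPM (SD, 3 libraries each), and the fitted log2 fold change was 1.42 (SE 0.18) with all libraries and 1.45 (SE 0.16) without shControl replicate 2. Genes are named as called below where edgeR gave an adjusted p under 0.05 and a log2 fold change of at least 1 in either direction, which 0.888% of the 14748 genes tested met on the higher side. BAMBI was in the fit with all libraries the 1 of 10 members past this threshold on that side, which is what it was chosen for, so nothing is read from it. It was not past the threshold without shControl replicate 1, without any 1 of the shPUS1 libraries or with the replicate block, where the log2 fold change was between 1.36 and 1.48. In those fits few genes of the whole table were past it, at most 18 higher and 0 lower, against 131 and 71 with all libraries.

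**Figure D1:**
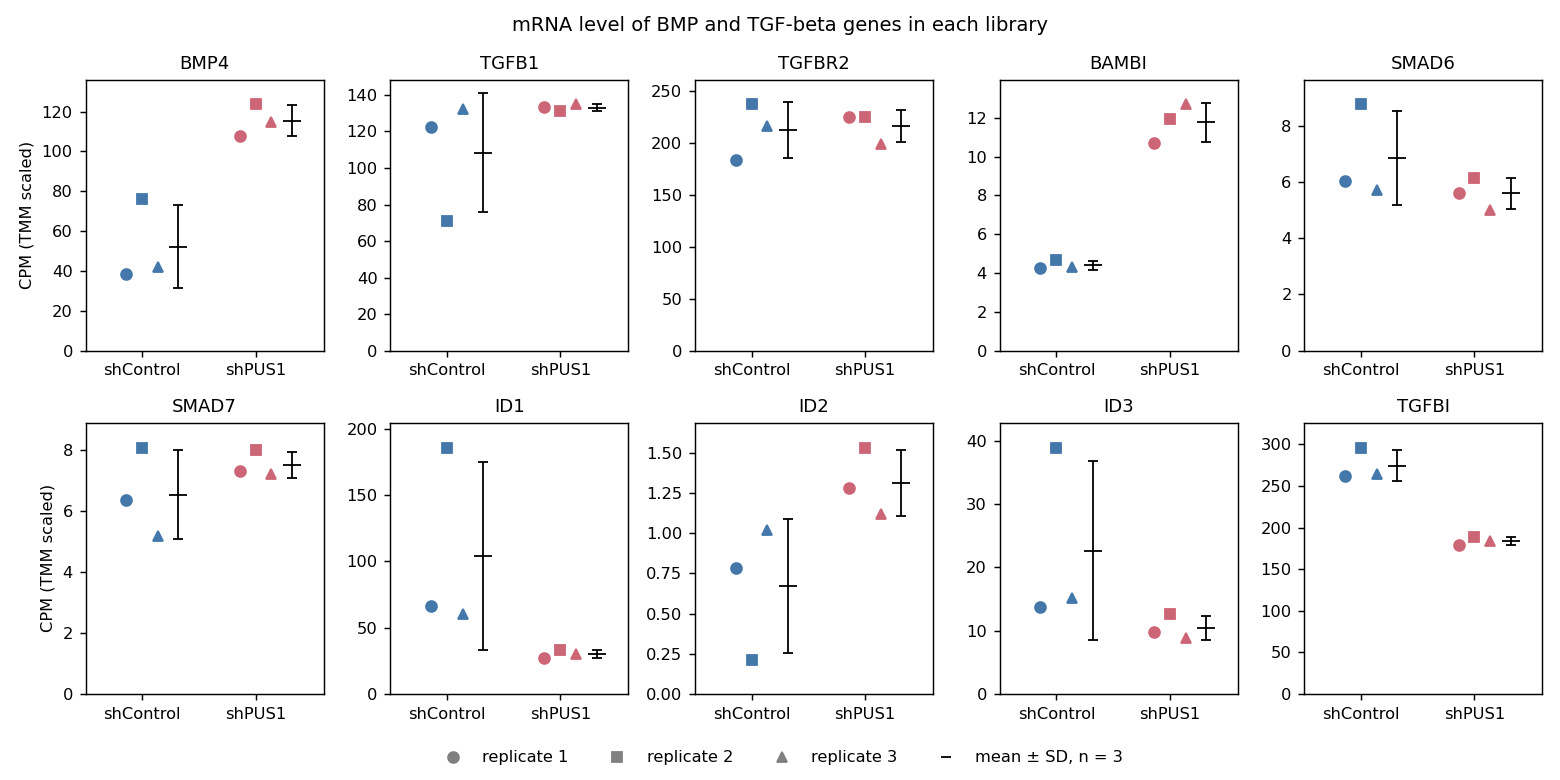
CPM (TMM scaled, linear axes from 0) of the 10 genes in each library, with circles, squares and triangles for replicates 1, 2 and 3 and black bars for mean ± SD, n = 3. BAMBI lies at 4.25 to 4.67 CPM in shControl and at 10.7 to 12.7 CPM in shPUS1, and the shControl square stands far above its group for ID1 and ID3 and below it for TGFB1.

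Among the ligands, BMP4 was higher in shPUS1 and TGFB1 overlapped between the groups. BMP4, a ligand of the BMP receptors, stood at 38.6, 76.0 and 41.8 CPM in the shControl replicates and at 108, 124 and 115 CPM in the shPUS1 replicates. The groups did not overlap, but shControl replicate 2 lay between them, at 1.89 times the mean of the other shControl libraries. The log2 fold change of BMP4 was 1.15 (SE 0.25), and 1.52 (SE 0.11) without that library. Counts of a small gene on the opposite strand that overlaps BMP4 did not exceed 23.2 in any library.

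TGFB1, a TGF-beta ligand, had 122, 71.1 and 132 CPM in shControl and 133, 131 and 135 CPM in shPUS1. Only shControl replicate 2 was low, at 0.56 times the mean of the other shControl libraries, and shControl replicate 3 lay among the shPUS1 libraries. With all libraries the log2 fold change of TGFB1 was 0.30 (SE 0.22), and 0.06 (SE 0.09) without shControl replicate 2. TGFB1 overlaps 5 other genes, 4 of them on the opposite strand, whose counts reached 11152.5 in a library, and whether the counting used strand is not given in the sources used here.

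Of 8 other TGF-beta and activin ligands 5 passed the filter on low counts, and TGFB2, a TGF-beta isoform, rose. TGFB2 went from 143 ± 49.8 to 351 ± 7.20 CPM (SD, n = 3; log2 fold change 1.30, SE 0.25, edgeR adjusted p = 0.0460), and had the highest mean FPKM of its list, at 40.7. The mean FPKM of TGFB2 was 23.92 in shControl and 57.55 in shPUS1, against 33.66 and 40.37 for TGFB1. Without shControl replicate 2 the log2 fold change of TGFB2 was 1.03. TGFB2 was called in 6 of 13 alternatives. It was not called with library totals in place of TMM (adjusted p = 0.0538, edgeR) or with limma on log2(FPKM + 0.1) (adjusted p = 0.0541). Nor was it called with the replicate block (adjusted p = 0.0804, edgeR) or without shControl replicate 1 (adjusted p = 0.095, edgeR). Without any 1 of the shPUS1 libraries its edgeR adjusted p was 0.189 to 0.244. Another gene, TGFB2-OT1, lies within TGFB2 on the same strand, had 96.5 to 390.0 counts per library, and 24.2% of the 100-base stretches of TGFB2 transcripts were shared with another gene. Of 12 other BMP ligands 4 were tested and 0 were called (0 at an unadjusted p under 0.05). BMP8B had the highest mean FPKM among them, 3.87, so that per exonic length BMP4 was the most abundant BMP ligand in both groups.

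Secreted TGF-beta is held latent and BMPs are held by antagonists, and 1 gene of each kind was called. Over all genes tested 0.888% were called higher and 0.481% lower. The lists were written with earlier results of these data known. Of 10 genes for latent TGF-beta binding and activation 8 were tested and 1 was called: ITGB8, an integrin subunit that releases active TGF-beta, rose from 1.44 ± 0.80 to 9.51 ± 2.80 CPM (log2 fold change 2.74, SE 0.47, edgeR adjusted p = 0.0371, and 2.31 without shControl replicate 2). FURIN, a protease that processes TGF-beta precursors, is named after its values were seen, as it passed the adjusted p (0.0319, edgeR) with a log2 fold change of 0.90 (SE 0.14), under the fold asked for. THBS1 had the highest mean FPKM of that list, 78.5, and a log2 fold change of -0.33 (SE 0.12, edgeR adjusted p = 0.133). Of 12 secreted antagonists 6 were tested, and NOG, which binds BMP4 and keeps it from its receptors, fell from 63.7 ± 15.2 to 31.1 ± 2.08 CPM (log2 fold change -1.03, SE 0.19, edgeR adjusted p = 0.0418). Without shControl replicate 2 the log2 fold change of NOG was -0.84, below the fold asked for. NOG was called in 6 of 13 alternatives and ITGB8 in 6 of 11. TWSG1, with the highest mean FPKM of the antagonists at 78.3, had a log2 fold change of 0.04.

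Per length, the ratio of BMP4 to NOG was 0.390, 0.588 and 0.517 in the shControl replicates and 2.19, 2.59 and 2.12 in the shPUS1 replicates. BMP4 was thus below NOG in FPKM in every shControl library and above it in every shPUS1 library. BMP4 was higher and NOG lower in shPUS1, so the separation of the groups in this ratio follows from those values and adds nothing to them. A ratio of 2 FPKM values compares RNA levels and not the amounts of the secreted proteins.

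The receptor TGFBR2 showed no difference beyond the spread between libraries. TGFBR2, the type II receptor that binds TGF-beta ligands, stood at 184, 237 and 217 CPM in the shControl replicates and at 225, 225 and 199 CPM in the shPUS1 replicates. The shPUS1 libraries lay inside the shControl range, with a log2 fold change of 0.03 (SE 0.13) and 0.11 (SE 0.11) without shControl replicate 2. Its sign was not fixed: over the alternatives it ran from -0.07 to 0.11.

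All 12 other type I and II receptors and co-receptors were tested, 0 were called (5 had an unadjusted p under 0.05, all with the higher mean in shPUS1, beside 12.6% of all genes on that side and 12.8% on the lower) and their median log2 fold change was 0.34, beside -0.03 over all genes. The 5, named after their values were seen, were BMPR2, ACVR1, TGFBR3, TGFBR1 and ACVR1B, with log2 fold changes of 0.68, 0.56, 0.66, 0.32 and 0.36 and edgeR adjusted p of 0.0658, 0.0590, 0.0759, 0.188 and 0.166. TGFBR1, the type I partner of TGFBR2, had the highest mean FPKM of the list, 18.4.

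The inhibitory SMADs were low and overlapped between the groups. SMAD7, which brings ubiquitin ligases to activated receptors, had 6.35, 8.07 and 5.18 CPM in shControl and 7.29, 7.99 and 7.20 CPM in shPUS1. Its highest value was that of shControl replicate 2, and its log2 fold change was 0.19 (SE 0.22), or 0.37 (SE 0.17) without that library. SMAD6, which acts mainly on the BMP branch, had 6.02, 8.76 and 5.72 CPM in shControl and 5.62, 6.13 and 5.02 CPM in shPUS1.

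SMAD6, too, was highest in shControl replicate 2, and the other shControl libraries lay among the shPUS1 libraries. Its log2 fold change was -0.29 (SE 0.24) with all libraries and -0.08 (SE 0.18) without shControl replicate 2. BAMBI, SMAD6 and SMAD7 are all feedback inhibitors, and of the 3 only BAMBI separated the groups. BAMBI was chosen for this difference, so nothing is read from that. Groups did not overlap for 18.8% of all genes tested with shPUS1 higher and for 17.3% with shPUS1 lower. Of the 6 receptor-activated SMADs and SMAD4, all tested, 0 were called (0 at an unadjusted p under 0.05), with log2 fold changes of -0.26 to 0.04, and SMAD3 had the highest mean FPKM, 22.7. Of 13 intracellular regulators of the pathway, all tested, 0 were called (3 at an unadjusted p under 0.05, SKIL, PMEPA1 and ZFYVE9, all with the higher mean in shPUS1, beside the same 12.6%), and FKBP1A had the highest mean FPKM, 70.9.

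ID1 and ID3 were lower in shPUS1 and ID2 was higher. ID1, the most abundant of them in FPKM, had 66.6, 186 and 60.1 CPM in the shControl replicates and 27.4, 32.9 and 30.3 CPM in the shPUS1 replicates. Every shPUS1 library lay below every shControl library, and shControl replicate 2 was at 2.94 times the mean of the other shControl libraries. The log2 fold change of ID1 was -1.79 (SE 0.42) with all libraries and -1.08 (SE 0.11) without shControl replicate 2.

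ID3 showed the same order at a lower level, with 13.7, 39.0 and 15.2 CPM in shControl and 9.85, 12.6 and 8.80 CPM in shPUS1. shControl replicate 2 was at 2.69 times the mean of the other shControl libraries, and the gap between the lowest shControl and the highest shPUS1 library was narrow. Without shControl replicate 2 the log2 fold change of ID3 went from -1.12 (SE 0.40) to -0.48 (SE 0.17). The ratio of ID1 to ID3 in FPKM was 5.88, 5.80 and 4.80 in the shControl replicates and 3.37, 3.17 and 4.18 in the shPUS1 replicates. In shControl replicate 2, where both genes were highest, this ratio stayed within the range of the other shControl libraries.

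ID2 was barely detected. Its counts were 12, 4 and 15 in shControl and 23, 28 and 19 in shPUS1, and the count of 4 in shControl replicate 2 has an exact 95% Poisson interval of 1.09 to 10.2, for counting error only. In CPM these were 0.79, 0.21 and 1.02 against 1.28, 1.53 and 1.12. The groups did not overlap, with shPUS1 higher, but shControl replicate 3 and shPUS1 replicate 3 were close and the lowest value was that of shControl replicate 2. The log2 fold change of ID2 was 0.99 (SE 0.54) with all libraries and 0.53 (SE 0.37) without it. In that library ID2 was low where ID1 and ID3 were high.

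**Figure D2:**
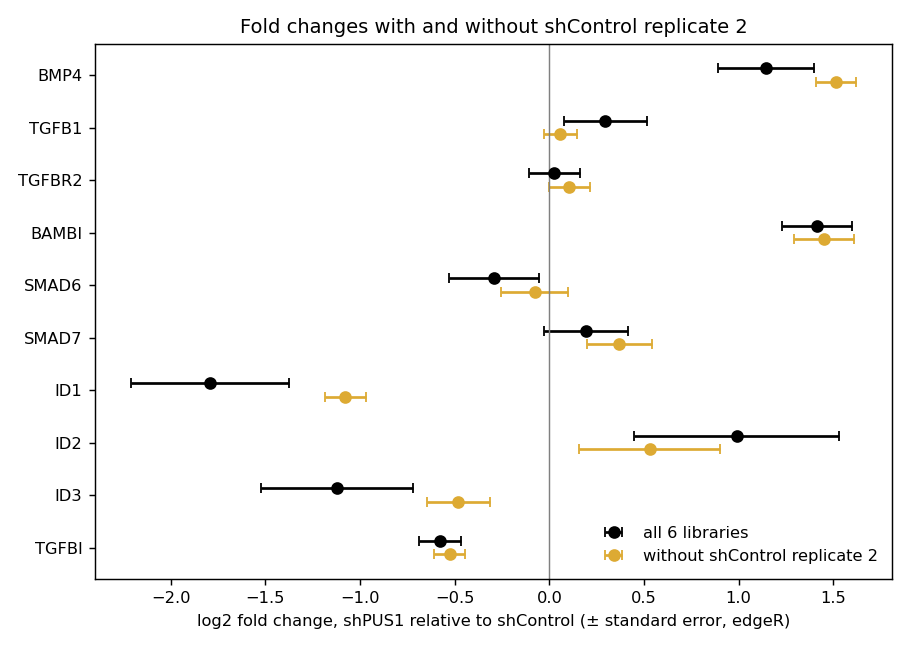
Log2 fold change of each gene, shPUS1 relative to shControl (edgeR, horizontal bars ± SE), with all 6 libraries in black and without shControl replicate 2 in yellow. ID1 moves from -1.79 to -1.08 and ID3 from -1.12 to -0.48, BMP4 from 1.15 to 1.52, and BAMBI from 1.42 to 1.45.

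BMP4 and ID1 stood in opposite order in the groups in FPKM. BMP4 was higher and ID1 lower in shPUS1, and both were chosen with this known. The distance between the groups in their ratio was therefore set by the choice. The ratio of BMP4 to ID1 was 0.231, 0.163 and 0.277 in the shControl replicates and 1.57, 1.50 and 1.51 in the shPUS1 replicates, and the values of the groups were far apart. By contrast the ratio of BMP4 to BAMBI was 6.25, 11.3 and 6.73 in shControl and 6.98, 7.16 and 6.26 in shPUS1. Only shControl replicate 2 differed there, since BMP4 was raised in it and BAMBI was not.

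TGFBI, an extracellular matrix protein named for its induction by TGF-beta, had 262, 296 and 265 CPM in the shControl replicates and 179, 189 and 183 CPM in the shPUS1 replicates. The groups were tight and apart, with shPUS1 lower in all 3 libraries. The log2 fold change of TGFBI was -0.58 (SE 0.11), and -0.53 (SE 0.08) without shControl replicate 2, which is under the fold asked for in both fits. Per length, TGFB1 over TGFBI was 1.10, 0.568 and 1.18 in the shControl replicates and 1.76, 1.64 and 1.74 in the shPUS1 replicates.

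Counted together, 1 member was called higher (BAMBI) and 0 were called lower, beside 0.481% of all genes called lower. At an unadjusted p under 0.05 the edgeR counts were 2 higher and 3 lower, beside 12.6% and 12.8% of all genes tested. DESeq2 called 2 higher (BAMBI and BMP4) and 2 lower (ID1 and ID3), beside 1.66% and 1.58% of all genes tested. An adjusted p under 0.05 at any fold was met by 1 member on each side, BAMBI and TGFBI, beside 1.74% of all genes on the higher side and 0.841% on the lower. Groups did not overlap for 3 members with shPUS1 higher (BAMBI, BMP4 and ID2) and for 3 with shPUS1 lower (ID1, ID3 and TGFBI), beside 18.8% and 17.3% of all genes tested. Of these counts nothing is read, as the same contrast was known when the genes were chosen.

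In order of mean FPKM over the shControl libraries the members ran ID1 (84.0), TGFBI (35.8), TGFB1 (33.7), TGFBR2 (31.2), BMP4 (16.8), ID3 (15.1), BAMBI (2.07), SMAD7 (1.66), SMAD6 (0.80) and ID2 (0.31). The libraries of TGFBI and TGFB1, of TGFB1 and TGFBR2, and of BMP4 and ID3 overlapped between neighbours, so that these places were not separate, whereas each other pair of neighbours was apart. In shPUS1 the order was TGFB1 (40.4), BMP4 (37.0), TGFBR2 (31.3), ID1 (24.3), TGFBI (23.6), ID3 (6.90), BAMBI (5.45), SMAD7 (1.88), SMAD6 (0.65) and ID2 (0.59). There BMP4 stood above TGFBR2 and TGFBI, ID1 was no longer apart from TGFBI, and BAMBI reached the range of ID3, with 4.92 to 5.87 against 5.82 to 8.39 FPKM. SMAD6 and ID2 overlapped as well.

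Of 18 other TGF-beta target genes 17 were tested, 2 were called higher and 1 lower, with a median log2 fold change of 0.14. TAGLN, a smooth muscle actin-binding protein, rose from 11.9 ± 4.79 to 60.8 ± 4.55 CPM (log2 fold change 2.36, SE 0.30) and PTHLH, the parathyroid hormone-related protein, from 0.58 ± 0.09 to 3.51 ± 0.55 CPM (log2 fold change 2.57, SE 0.32), each with an edgeR adjusted p of 0.0215. Without shControl replicate 2 their log2 fold changes were 2.06 and 2.69. ANGPTL4, a secreted inhibitor of lipoprotein lipase, fell from 8.36 ± 2.62 to 1.19 ± 0.33 CPM (log2 fold change -2.81, SE 0.35, edgeR adjusted p = 0.0215, and -2.59 without shControl replicate 2). PTHLH and ANGPTL4 were known to be called when the list was written, and without them 15 targets were tested, 1 was called higher and 0 lower (4 higher and 3 lower at an unadjusted p under 0.05). TAGLN overlaps PCSK7 on the opposite strand, which had 308 to 748 counts per library. The target with the highest mean FPKM, CCN1 (1128), had a log2 fold change of 0.69 (SE 0.31, edgeR adjusted p = 0.217).

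**Figure D3:**
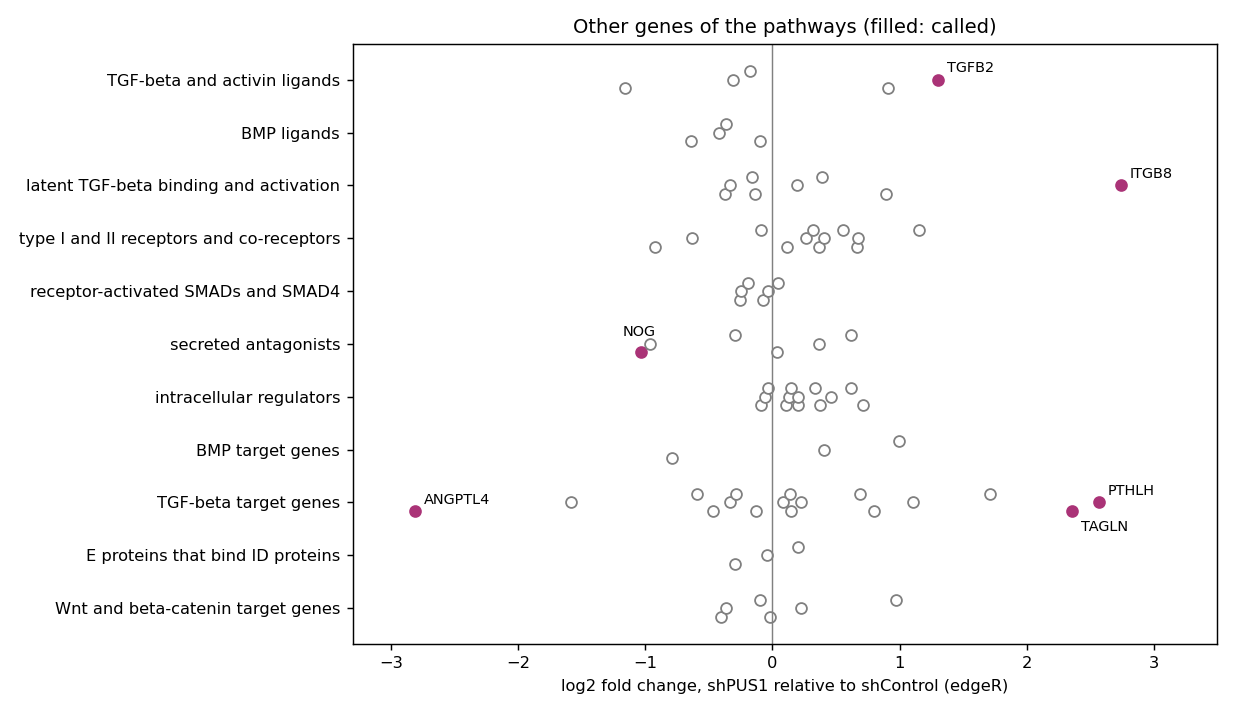
Log2 fold change (edgeR, shPUS1 relative to shControl) of the 83 tested genes of 11 pathway lists, 1 point per gene, filled and named where called. TGFB2, ITGB8, TAGLN and PTHLH lie at 1.30 to 2.74, NOG and ANGPTL4 at -1.03 and -2.81, and the receptor-activated SMADs stay between -0.26 and 0.04.

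Of 7 other BMP target genes 3 were tested and 0 were called (2 at an unadjusted p under 0.05, GATA2 and HEY1, both with the higher mean in shPUS1, beside 12.6% of all genes), and GATA2 had the highest mean FPKM, 14.6. The 3 E proteins that ID proteins bind had log2 fold changes of -0.29 to 0.20 with 0 called (0 at an unadjusted p under 0.05), TCF3 being the most abundant at 18.8 FPKM. BAMBI is also a known target of beta-catenin, and whether this bears on its level here was not tested. Of 9 other Wnt target genes 6 were tested and 0 called, with ZNRF3 the most abundant at 1.44 FPKM. Only LGR5 had an unadjusted p under 0.05 (edgeR), with the higher mean in shPUS1, beside 12.6% of all genes. Over all lists 4 of 83 tested genes were called higher and 2 lower, or 3 and 1 of 81 without PTHLH and ANGPTL4, beside the shares over all genes given above. Without shControl replicate 2 the counts were 6 and 3, and 0 and 0 without shControl replicate 1 or without any 1 of the shPUS1 libraries. Over all genes, the fit without shControl replicate 2 called 246 higher and 251 lower of 15130 tested. The fits with 0 and 0 called at most 11 genes higher and 0 lower in the whole table.

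**Figure D4:**
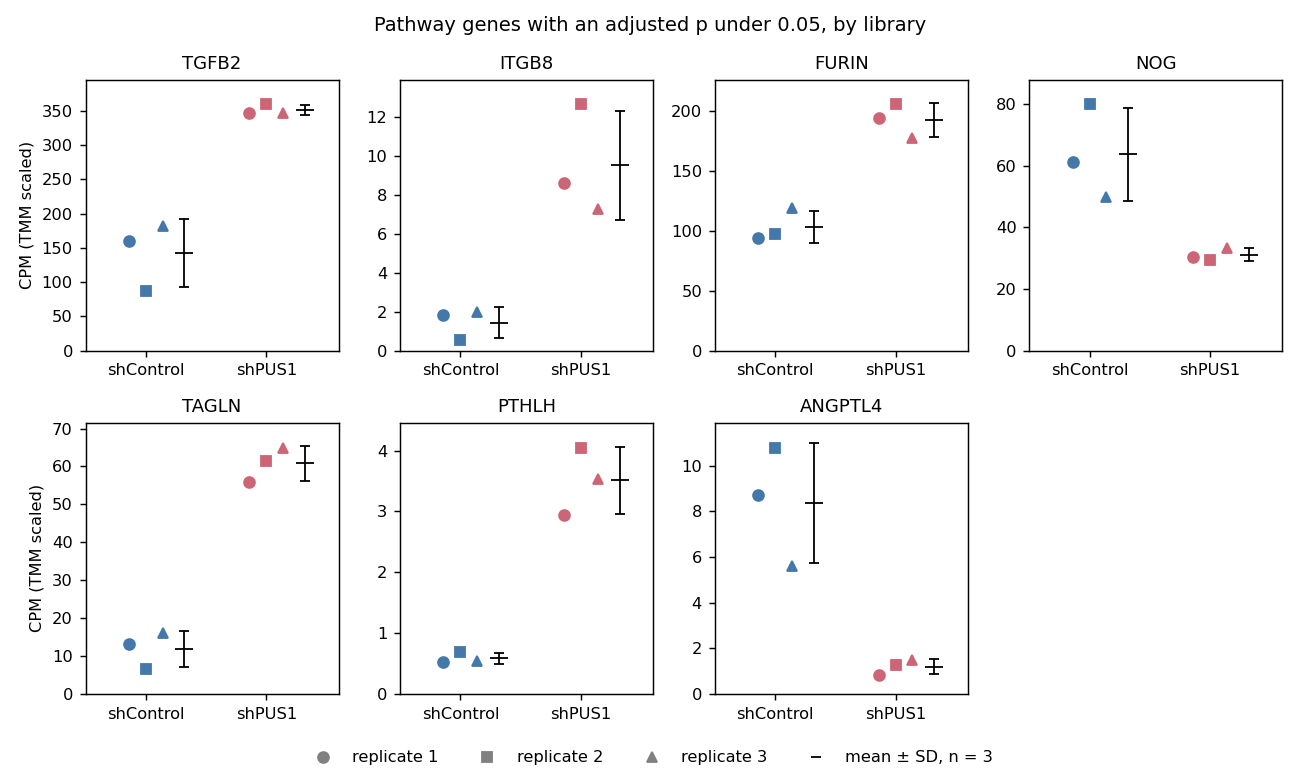
CPM (TMM scaled, linear axes from 0) of the 7 pathway genes outside the members with an adjusted p under 0.05, by library, with symbols for replicates and black bars for mean ± SD, n = 3. The groups do not overlap for any of the 7, and shControl replicate 2 (blue square) is the lowest library for TGFB2, ITGB8 and TAGLN and the highest for NOG and ANGPTL4.

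The profile of BAMBI over the 6 libraries was compared with those of 12124 protein-coding genes at 1 CPM or more. The nearest, by the root mean square distance of centred log2 CPM, were S1PR1 (0.13), CARD6 (0.13), GAREM1 (0.15), HSPH1 (0.15) and SH3KBP1 (0.15). S1PR1, a receptor for sphingosine 1-phosphate, had means of 8.44 and 20.8 CPM in shControl and shPUS1. All 5 were called higher, with log2 fold changes of 1.17 to 1.35, beside 0.888% of all genes tested. BAMBI was chosen for its difference between the groups, so that genes near it were bound to share that difference. The 5 are therefore no evidence of a link to BAMBI, and the change of S1PR1 was known beforehand. None of the other members was among the 5, which says little with 12124 genes compared. ID2, under 1 CPM on average, was not in the comparison.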

How the data were processed

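Poly(A) RNA of 3 shControl and 3 shPUS1 libraries was analysed. Per the labels and the study's methods, the authors aligned reads with HISAT2 and counted with HTSeq 0.6.1. Genome build, annotation release, strandedness and the treatment of reads with several places are not given in the sources used here. The deposited estimated counts per gene are not normalized, and 29.8% to 31.8% of those above 0 are not whole. How the counting named above gave counts that are not whole is not stated in the sources used here. The deposited FPKM values divide these counts by exonic length and library total, made by the authors. The table also holds each gene's exonic length.

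Counts were rounded, filtered with filterByExpr, which kept all 10 members and 14748 genes in all, TMM scaled and fitted in edgeR 4.0.16 (R 4.3.3; glmQLFit and glmQLFTest), with p adjusted over all genes tested by Benjamini-Hochberg. Calls needed an adjusted p under 0.05 and a log2 fold change of 1 or more in either direction. The fits were tested on simulated data with less spread between libraries than the real data and no library that stood apart. That test therefore does not show how the fits perform on these libraries. Members and lists were chosen with earlier results of these data known, and ANGPTL4 and PTHLH were known to be called.

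Named genes were the members and PUS1, of each list the called genes, or else up to 3 with the smallest adjusted p under 0.05, and the gene with the highest mean FPKM, and the 5 protein-coding genes nearest to BAMBI. FURIN, SKIL, PMEPA1, ZFYVE9, HEY1, LGR5 and the receptors other than TGFBR1 and TGFBR2 were named after their values were seen. Alternatives were DESeq2 size factors, library totals without TMM, no filter on low counts, DESeq2 1.42.0, limma 3.58.1 on log2(FPKM + 1) and log2(FPKM + 0.1), a replicate block, no fold threshold, and leaving out each library.

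Deposited coordinates were compared with GENCODE 29 (GRCh38): 58337 identifiers were found, of which 74.7% have identical ends and 99.9% overlap. The 100-base stretches of each named gene's transcripts were searched in those of all other genes, and members shared 0%. Promoter sequences are those of RefSeq. Library totals were 14241505 to 19625998 counts, the biological coefficient of variation of the fit was 0.22, and the Poisson interval given for ID2 leaves out all but counting error.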

Additional observations from a re-analysis of the deposited data

How the results depend on the processing

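BAMBI kept its direction in all 13 alternatives, with a log2 fold change of 1.07 to 1.48. The lowest value, 1.07, came from limma on log2(FPKM + 1), whose pseudocount understates changes of low genes. Of the other members, ID1, ID3, ID2, BMP4, TGFBI, TGFB1, SMAD6 and SMAD7 kept their direction in every alternative that gave a value, and TGFBR2 did not. The ranges were -2.07 to -1.08 for ID1, -1.38 to -0.48 for ID3 and 0.97 to 1.52 for BMP4.

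Members called higher numbered 1 in the result as reported, 2 with no filter on low counts, with DESeq2 and with limma on log2(FPKM + 1), and 0 with the replicate block. Members called lower numbered 0 as reported, 2 with no filter on low counts and with DESeq2, and 1 at an adjusted p with no fold threshold. Leaving out 1 library gave 0 to 2 called higher and 0 to 1 called lower. Calls over all genes moved as well, from 131 higher and 71 lower as reported to 18 and 0 with the replicate block. Leaving out 1 library gave 0 to 246 higher and 0 to 251 lower over all genes. More genes were called on both sides with DESeq2 and with no filter on low counts than as reported, and fewer with limma on log2(FPKM + 1). Differences in member counts between fits are therefore not read as changes in the members.

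Pathway list genes called higher numbered 4 as reported and 6 both with DESeq2 and with no filter on low counts. They numbered 2 with limma on log2(FPKM + 1), 1 with limma on log2(FPKM + 0.1) and 1 (TAGLN) with the replicate block. Those called lower numbered 2 as reported and 3 both with DESeq2 and with no filter on low counts. They numbered 1 with limma on log2(FPKM + 1) and 0 with the replicate block. Calls over all genes in these fits are described above, and limma on log2(FPKM + 0.1) called 68 higher and 44 lower. Leaving out 1 library gave 0 to 6 higher and 0 to 3 lower. ITGB8, PTHLH, ID2 and SMAD6 were not fitted by limma. The cause of these differences was not tested.

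Residuals of same-numbered libraries correlated at -0.07, -0.04 and -0.24 across 14748 genes. Each residual is taken from the mean of its own small group, and shControl replicate 2 stood apart. These values therefore cannot tell whether same-numbered libraries were handled together. Depth limits ID2 most, with 4 to 28 counts per library. Without shControl replicate 2 the log2 fold changes of ID1, ID3, ID2, TGFB1, SMAD6 and TGFBI were smaller in size. That of BMP4 was larger, at 1.52 (SE 0.11) against 1.15 (SE 0.25) with all libraries, as were those of BAMBI, SMAD7 and TGFBR2.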
